A study of Macaca mulatta with 10 samples.

Results

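Potassium channels let potassium ions leave or enter the cell and so set the resting membrane potential and end electrical activity. In skeletal muscle they repolarize the fiber after each action potential and carry the potassium that leaves it during exercise, and in fat tissue they are found in adipocytes, vessel cells and immune cells. Human gene symbols of the pore-forming subunits and of many of their partner proteins begin with KCN, and all genes whose symbol begins so were taken here. They numbered 64 of the 28595 Ensembl macaque genes in the count tables. A symbol was found for 54.4% of the genes, so a KCN gene whose row has no symbol was not analysed here. *KCNJ11* and *KCNJ8*, the pores of the ATP-sensitive channel, *KCNJ2*, a main inward rectifier of muscle, and *KCNA7* are among the genes not analysed here. By their symbols, 30 members are voltage-gated channels (families KCNA to KCND, KCNF to KCNH, KCNQ, KCNS and KCNV), 8 are calcium- or sodium-activated channels (KCNM alpha, KCNN, KCNT and KCNU), 6 are inward rectifiers (KCNJ), 9 are two-pore channels (KCNK) and 11 are auxiliary or regulatory proteins (KCNAB, KCNE, KCNIP, KCNM beta and KCNRG). No sequence of a member is shown, since none was in the sources used here.

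Skeletal muscle and adipose tissue (labelled fat) of 5 male rhesus monkeys were sequenced, with 1 poly(A) RNA library for each tissue of an animal, or 10 libraries. Monkeys rhesus_920401, rhesus_940129, rhesus_940313 and rhesus_950509 were controls. Monkey rhesus_950807, labelled a case with an extremely high insulin level, is called the hyperinsulinemic monkey. In the paper it carries a heterozygous nonsense mutation of *PRKD2*, is counted among the animals with spontaneous metabolic syndrome and is more obese. Insulin level, mutation, metabolic syndrome, obesity and the individual animal cannot be told apart with 1 monkey. Neither ages nor the sites of the tissue pieces were found in the labels or the paper. The adipocyte markers summed to 2645 to 6419 RPKM in control fat and 66.7 to 140 RPKM in control muscle, and the muscle fiber markers to 42472 to 53465 RPKM in muscle and 0.946 to 181 RPKM in fat. RPKM, reads per kilobase of the gene's longest transcript per unit of mapped reads, is the only scale used to compare levels between genes.

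The libraries held 30669915 to 43268985 mapped reads, of which the 64 members took 5911 to 14020. Most members had few reads. No read of 9 members was counted in any of the 10 libraries, among them *KCNA10*, *KCNC2*, *KCND2*, *KCNH6*, *KCNH7*, *KCNJ6*, *KCNK16* and *KCNV1*, and 20 members, these 9 included, never reached 10 reads in a library. A count of 0 allows up to 3 reads in a library, and all intervals on reads given here cover counting error only. The mean of the controls was at least 1 RPKM for 15 members in fat and for 11 in muscle.

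The highest levels belonged to a few genes of different kinds. In control muscle *KCNS3*, a modifier subunit that forms channels only together with other subunits, had 34.3 ± 3.70 RPKM (SD, n = 4), the fast-inactivating channel *KCNC4* had 26.6 ± 8.16 RPKM and the beta subunit *KCNAB3* had 25.5 ± 3.63 RPKM. In control fat *KCNAB3* was highest at 38.2 ± 17.7 RPKM, followed by *KCNIP2*, a calcium-binding subunit of KCND channels, at 18.6 ± 8.59 RPKM. The *KCNAB3* row rests on a transcript of only 1093 bases, and an RPKM depends on that length.

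**Figure D1:**
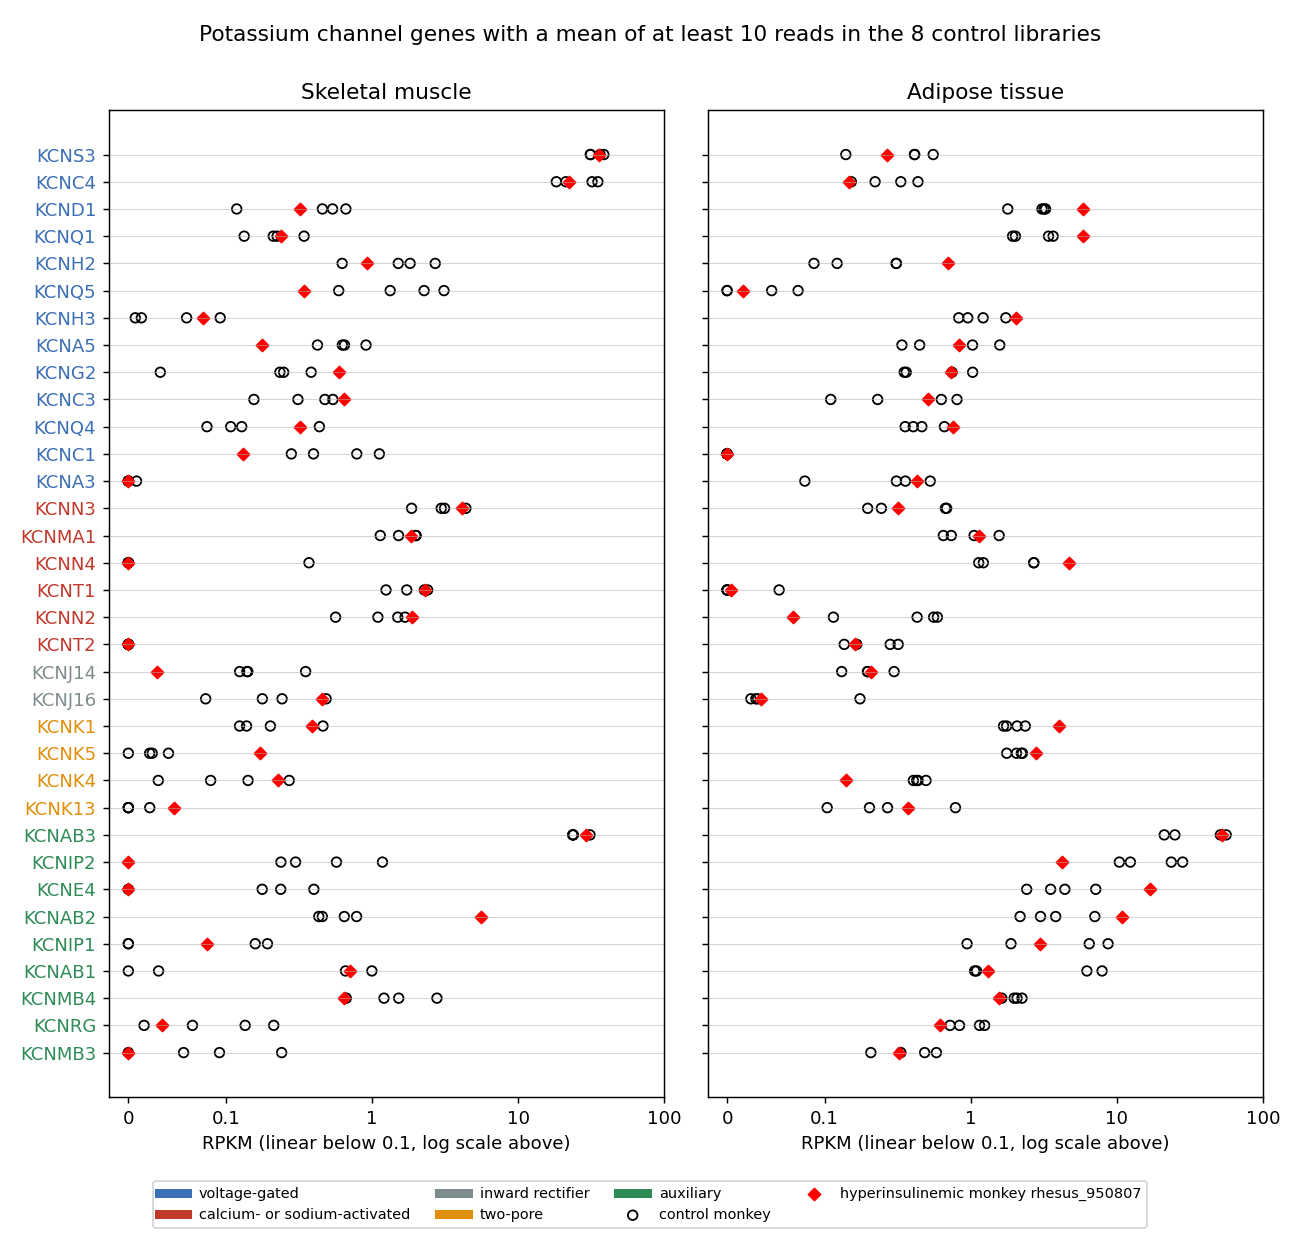
RPKM (horizontal axis, linear below 0.1 and logarithmic above) of 34 of the 35 members with a mean of at least 10 reads in the 8 control libraries, in muscle and in fat. Open circles are the 4 control monkeys, red diamonds the hyperinsulinemic monkey, and label colours give the class. *KCNS3* and *KCNC4* lie above 18 RPKM in every muscle library and under 0.6 RPKM in every fat library.

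The tissues of the 4 controls were compared first. Of the members, 35 had a mean of at least 10 reads over the 8 control libraries and were tested with edgeR's quasi-likelihood test, fitted to all 14045 genes that passed this filter. Calls required an adjusted p under 0.05 (Benjamini-Hochberg over all genes tested) together with a log2 difference of 1 or more in size. Of the 35, 12 were called higher in fat (28.1% of all genes were) and 11 higher in muscle (20.0% of all genes), and 12 were not called. Together 65.7% of the members tested were called, beside 48.1% of all genes tested. Their median log2 difference, fat minus muscle, was 0.03, beside 0.37 over all genes.

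The calls were also counted by class, beside 28.1% of all genes called higher in fat and 20.0% higher in muscle. Auxiliary proteins (4 of 9 tested) and two-pore channels (3 of 4) were called only higher in fat. With DESeq2, however, the auxiliary *KCNMB4* was called higher in muscle (−1.10, adjusted p 0.0387). The auxiliary *KCNAB3* was called higher in muscle by edgeR without rhesus_940129 (−1.20, adjusted p 0.0154). Calcium- or sodium-activated channels were called higher in muscle in 4 of 6 and higher in fat in 1, voltage-gated channels in 6 and 4 of 14, and of 2 inward rectifiers 1 was called higher in muscle. These counts are small and the classes were not tested against each other.

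The split depends on the scaling. The 10 genes with most reads held 30.3% to 32.9% of the gene reads of a muscle library and 5.35% to 8.09% of those of a fat library, and TMM scaling factors, which correct for this, were 0.535 to 0.663 in control muscle and 1.53 to 1.80 in control fat. Scaling to the summed gene counts without TMM shifted the median of all genes by 1.5 on the log2 scale, from 0.37 to 1.87, and the share of called genes that were higher in fat from 58.5% to 91.0%. It called 16 members higher in fat and 8 higher in muscle. *KCNMA1* (−0.63, adjusted p 0.131) and *KCNJ16* (−1.71, adjusted p 0.128) were among the members that then lost their call. All log2 differences, folds and calls that follow are with TMM unless another scaling or test is named. RPKM values carry no TMM factor, so fat and muscle can compare otherwise in RPKM. *KCNAB3*, for example, had a mean of 38.2 RPKM in control fat and 25.5 RPKM in control muscle, but a log2 difference of −0.89. In such pieces of tissue, fewer cells of a type and less RNA per cell cannot be told apart.

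**Figure D2:**
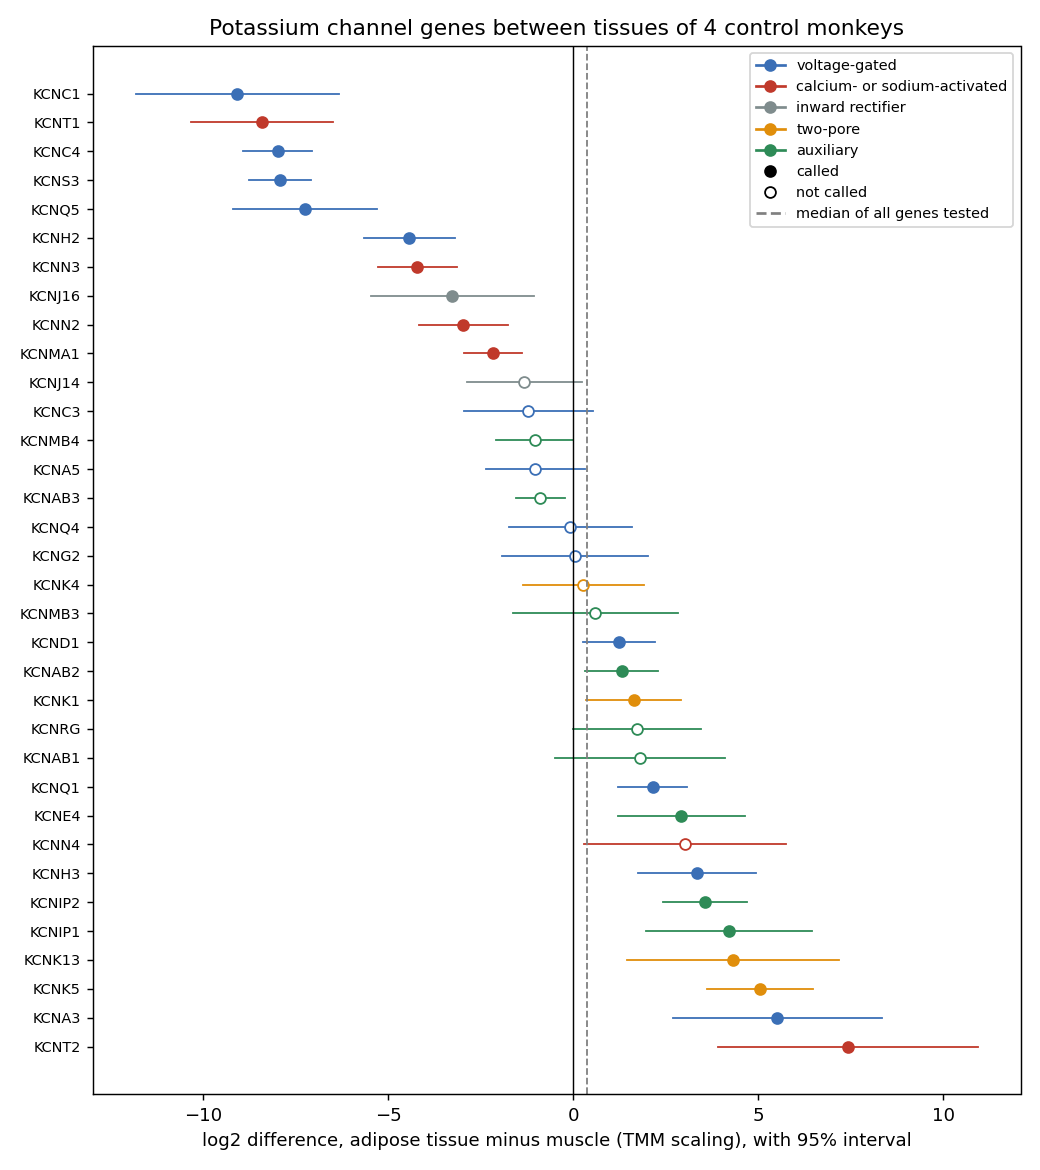
Log2 difference, fat minus muscle, in the 4 control monkeys (TMM scaling, edgeR) with 95% intervals for 34 of the 35 members tested. Filled points were called, colours give the class and the dashed line is the median of all genes tested, 0.37. The members run from *KCNC1* at −9.09 to *KCNT2* at 7.42. The positions of these genes, with 0 reads in control fat (*KCNC1*) or control muscle (*KCNT2*), depend on the prior count of the fit.

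Among the voltage-gated channels, those of muscle were separated from fat by the widest differences. *KCNS3* (ENSMMUG00000017198, chromosome 13 from 17820267 to 17873280, plus strand, in a genome build that neither labels nor paper name) had 36.3, 38.5, 31.2 and 31.1 RPKM in the muscle of rhesus_920401, rhesus_940129, rhesus_940313 and rhesus_950509, and 0.553, 0.140, 0.412 and 0.414 RPKM in their fat. The log2 difference was −7.94 (standard error 0.385, adjusted p 2.65e-08 from edgeR). *KCNC4* (ENSMMUG00000004614, chromosome 1 from 113277530 to 113300390) had 35.1, 21.2, 32.0 and 18.2 RPKM in muscle and 0.222, 0.435, 0.152 and 0.332 RPKM in fat, a log2 difference of −8.00 (standard error 0.435, adjusted p 4.19e-08). The tissues did not overlap for either gene, and the muscle level of *KCNC4* varied more between animals than that of *KCNS3*. The few reads in fat, 10 to 42 of *KCNS3* and 22 to 50 of *KCNC4*, came from all 4 controls. The muscle actin *ACTA1* was in fat at 0.350%, 0.00410%, 0.280% and 0.00154% of its mean RPKM in control muscle, in the same order of monkeys, and the part of muscle RNA in these reads was not tested.

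*KCNC1*, a fast channel of the same family as *KCNC4*, had 17, 44, 27 and 64 reads in control muscle (0.647 ± 0.384 RPKM, n = 4) and 0 in every fat library. Against a floor of 3 reads over the control fat libraries it was at least 127-fold higher in muscle, after TMM scaling. *KCNQ5*, a slowly activating channel of muscle and nerve, had 2.27, 3.11, 0.592 and 1.33 RPKM in muscle and 0 to 0.0728 RPKM in fat (log2 difference −7.26, standard error 0.900, adjusted p 2.66e-05). *KCNH2*, best known as a repolarizing channel of the heart, had 1.51, 1.82, 2.70 and 0.625 RPKM in muscle and 0.122, 0.310, 0.0891 and 0.309 RPKM in fat. Its tissues did not overlap, with a log2 difference of −4.44 (standard error 0.568, adjusted p 3.46e-05).

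The voltage-gated members called higher in fat stayed far below the muscle levels of *KCNS3* and *KCNC4*. *KCNQ1*, the slow repolarizing channel of the heart and of epithelia, had 3.66, 3.40, 1.93 and 2.02 RPKM in fat and 0.211, 0.343, 0.134 and 0.224 RPKM in muscle (log2 difference 2.14, standard error 0.430, adjusted p 0.00107). *KCND1*, a fast transient channel to which KCNIP subunits bind, had 3.25, 3.07, 3.17 and 1.79 RPKM in fat and 0.537, 0.662, 0.119 and 0.458 RPKM in muscle, a log2 difference of 1.23 (adjusted p 0.0316). The call of *KCND1* was lost without rhesus_920401 (1.34, adjusted p 0.0671), rhesus_940129 (1.33, adjusted p 0.0605) or rhesus_940313 (0.82, adjusted p 0.106), while *KCNQ1* stayed called in each of the 12 alternatives run. *KCNH3* had 0.828 to 1.74 RPKM in fat, from 120 to 206 reads, and 1 to 13 reads in muscle (log2 difference 3.34, standard error 0.737, adjusted p 0.00208). *KCNA3*, the main voltage-gated channel of T lymphocytes, had 33, 8, 45 and 68 reads in fat and 0, 0, 0 and 1 in muscle (log2 difference 5.51, standard error 1.30, adjusted p 0.00328). The T and NK cell markers, 4 of 7 of which had a row, summed to 5.76 to 15.5 RPKM in control fat and 0.426 to 3.06 RPKM in control muscle, with none at 0 in all libraries of a tissue, and their part in the *KCNA3* level was not tested.

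Of the calcium- and sodium-activated channels *KCNN3* had the highest mean level in control muscle. *KCNN3*, a small-conductance calcium-activated channel, had 4.38, 3.13, 1.86 and 2.97 RPKM in muscle and 0.245, 0.684, 0.197 and 0.671 RPKM in fat (log2 difference −4.22, standard error 0.492, adjusted p 1.59e-05). Its relative *KCNN2* had 0.563, 1.68, 1.5 and 1.10 RPKM in muscle and 0.557, 0.591, 0.115 and 0.430 RPKM in fat, so that the lowest muscle library lay below the highest fat library in RPKM, while the TMM-scaled difference was called (−2.97, standard error 0.557, adjusted p 0.000657). The third relative, *KCNN4*, an intermediate-conductance channel known from red and white blood cells, went the other way. It had 1.22, 2.69, 2.70 and 1.13 RPKM in fat, from 24 to 63 reads on a transcript of 605 bases, and in muscle only the 8 reads of rhesus_940129. Its log2 difference of 3.02 (standard error 1.26, adjusted p 0.0575) was not called, whereas with the animal as a block it was (4.40, adjusted p 0.0325), as it was without rhesus_940129 (7.72, adjusted p 0.00815).

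The large-conductance calcium-activated channel *KCNMA1* had 1.99, 1.14, 2.0 and 1.52 RPKM in muscle and 0.649, 0.736, 1.05 and 1.56 RPKM in fat. The RPKM values overlapped through the fat of rhesus_950509, and the call (−2.18, standard error 0.364, adjusted p 0.000282) was lost with summed-count scaling, as given above. Of the sodium-activated channels, *KCNT1* had 586, 281, 623 and 397 reads in muscle and in control fat only 13 reads in rhesus_940313 (log2 difference −8.43, standard error 0.886, adjusted p 6.89e-06). Its relative *KCNT2* had 0 reads in every muscle library and 35, 16, 47 and 25 in control fat. Against a floor of 3 reads over control muscle *KCNT2* was at least 16.4-fold higher in fat. Both genes were thus called, in opposite directions.

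Two-pore channels, which carry background potassium currents, were found mainly in fat. *KCNK5*, an acid-sensitive channel, varied little between the controls, with 2.22, 2.26, 1.76 and 2.05 RPKM in fat and 0 to 6 reads in muscle (log2 difference 5.05, standard error 0.664, adjusted p 4.36e-05). *KCNK1* had 2.36, 2.07, 1.76 and 1.68 RPKM in fat and 0.124, 0.202, 0.139 and 0.462 RPKM in muscle. The tissues did not overlap, yet the call (1.63, adjusted p 0.0334) was lost with the animal as a block (1.82, adjusted p 0.0516) and without any 1 of rhesus_920401, rhesus_940129 and rhesus_940313 (1.38 to 1.47, adjusted p 0.102 to 0.140). *KCNK4*, a channel opened by stretch and lipids, had 0.405 to 0.494 RPKM in fat and 0.0307 to 0.271 RPKM in muscle. Its RPKM did not overlap, but it was not called (0.26, standard error 0.754, adjusted p 0.779), while with summed-count scaling it was (1.76, adjusted p 0.0492). *KCNK13* was called higher in fat (4.32, adjusted p 0.0142) from 8 to 64 reads there and 0 to 2 in muscle, but not without rhesus_940313 (3.97, adjusted p 0.0628), and without rhesus_920401 it no longer reached the filter. *KCNK1*, *KCNK4* and *KCNK13* each overlap a gene with no symbol, on the opposite strand for *KCNK1* and on the same strand for the others. The genes overlapping *KCNK4* and *KCNK13* had a mean of 0 RPKM in both control tissues. The libraries were strand-specific, and whether reads were shared was not tested.

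Inward rectifiers, which hold the resting potential, were scarce among the members analysed, with no member at a control mean of 1 RPKM in either tissue. *KCNJ16*, a subunit that works in pairs with other KCNJ proteins, had 39, 18, 16 and 6 reads in muscle and 2, 2, 14 and 2 in fat, a log2 difference of −3.27 (standard error 1.02, adjusted p 0.0153) that was lost with summed-count scaling, and without rhesus_920401 it no longer reached the filter. *KCNJ14* had 15 to 38 reads in muscle and 15 to 35 in fat and was not called (−1.33, adjusted p 0.131), and with summed-count scaling its difference was 0.135. *KCNJ1*, a channel of the kidney, had 12, 0, 14 and 2 reads in control fat and 0 in muscle and was below the filter (exact permutation test of RPKM, two-sided, p = 0.143).

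Auxiliary proteins gave fat its most abundant members. *KCNIP2* (ENSMMUG00000015776, chromosome 9 from 101462472 to 101481914, minus strand) had 12.3, 28.1, 10.4 and 23.5 RPKM in fat and 0.300, 0.238, 0.571 and 1.18 RPKM in muscle (log2 difference 3.56, standard error 0.527, adjusted p 0.00011). It stayed called in each of the 12 alternatives run. *KCNE4*, a single-pass subunit that inhibits several voltage-gated channels, had 7.16, 3.52, 4.40 and 2.41 RPKM in fat and 0 to 0.400 RPKM in muscle (2.92, standard error 0.794, adjusted p 0.00752). *KCNIP1*, related to *KCNIP2*, differed widely between the controls, with 8.69, 1.88, 6.46 and 0.943 RPKM in fat and 0 to 0.193 RPKM in muscle (4.20, standard error 1.04, adjusted p 0.00425). The high fat libraries of *KCNIP1* are those of rhesus_920401 and rhesus_940313, in which *ACTA1* was 0.350% and 0.280% of the muscle level. In the muscle of the same monkeys *KCNIP1* had 0 and 0.159 RPKM, and the part of muscle RNA in these fat libraries was not tested. With these fat libraries left out neither *KCNIP1* (2.57, adjusted p 0.160) nor *KCNE4* (2.38, adjusted p 0.105) was called, nor were *KCNAB2* (0.70, adjusted p 0.418), *KCND1* (1.02, adjusted p 0.186) and *KCNK1* (1.56, adjusted p 0.188). *KCNK13* and *KCNT2* then fell below the filter, and 5 members instead of 12 were called higher in fat.

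The beta subunits of the KCNAB family, which bind to the inner face of KCNA channels, differed among themselves. *KCNAB2* had 7.05, 3.0, 3.81 and 2.17 RPKM in fat and 0.784, 0.457, 0.646 and 0.432 RPKM in muscle. It was called higher in fat (1.30, standard error 0.454, adjusted p 0.0267), but not without rhesus_920401 (1.16, adjusted p 0.104), rhesus_940129 (1.23, adjusted p 0.0664) or rhesus_940313 (1.35, adjusted p 0.0834). *KCNAB3* had 55.8, 51.0, 24.9 and 21.0 RPKM in fat and 31.0, 23.8, 23.7 and 23.6 RPKM in muscle. Its log2 difference of −0.89 was under the size required (adjusted p 0.0233). The difference was 0.602 with summed-count scaling and −1.20 (adjusted p 0.0154) without rhesus_940129, where it passed. *KCNAB1*, named after its values were seen, had 7.91, 1.09, 1.06 and 6.22 RPKM in fat, high in rhesus_920401 and rhesus_950509 and low in the others, and 0 to 0.997 RPKM in muscle (1.80, standard error 1.06, adjusted p 0.166).

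Other proteins of potassium handling and of the muscle membrane were counted from lists. All 6 genes of muscle excitability tested were called higher in muscle, among them the sodium channel *SCN4A* (−10.59), the chloride channel *CLCN1* (−5.42) and the calcium channel *CACNA1S* (−10.93). Of 5 genes tested from the sodium-potassium pump list, 2 were called higher in fat, among them the regulator *FXYD5* (1.61), and 3 higher in muscle, among them *ATP1B1* (−1.92) and *ATP1B4* (−9.36). Of 5 potassium cotransport genes, 2 were called higher in fat, among them *SLC12A7* (1.30), and *SLC12A2* (−1.54) higher in muscle, and of 6 channel partners *DLG1* (1.83) was called higher in fat and *CALM3* (−2.53) and *NEDD4L* (−2.75) higher in muscle. The sulfonylurea receptors, which bind the pores of the ATP-sensitive channel, were not called. *ABCC9* had 3.40 ± 2.77 RPKM (SD, n = 4) in fat and 2.0 ± 0.604 RPKM in muscle (−0.69, adjusted p 0.281), with a sign that turned under summed-count scaling (0.821), and *ABCC8* had 0.263 ± 0.153 RPKM and 0.0779 ± 0.0496 RPKM (0.33, adjusted p 0.747), with a sign that turned without rhesus_940129 or without rhesus_950509. The lists were incomplete in the tables, with 9 of 15 channel partners, 7 of 12 pump genes and all of the other lists present.

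The hyperinsulinemic monkey was then compared with the controls in each tissue. The test assumes that this animal varies as the 4 controls do, and exact permutation of 1 animal against 4 reaches no p below 0.2. *PRKD2* had 0.387 RPKM in its muscle and 1.40 ± 0.294 RPKM (SD, n = 4) in control muscle. In fat it had 3.66 RPKM, within the controls at 3.27 to 6.12 RPKM, and it was called in neither tissue.

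No member was called in the muscle of the hyperinsulinemic monkey. Of 24 members tested 0 passed an adjusted p of 0.05 in edgeR, as did 0.0% of the 12172 genes tested, and 3 had an unadjusted p under 0.05 (8.67% of all genes did). After TMM scaling 3 members lay above all controls (23.0% of all genes did) and 6 below all controls (23.2% of all genes). The median log2 difference of the members was −0.0009, beside −0.04 over all genes. DESeq2 called 2 members, *KCNAB2* and *KCNIP2*, beside 90 of the 12172 genes. Without a filter edgeR called 1, *KCNAB2*, beside 10 of all genes.

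*KCNAB2* (ENSMMUG00000016837, chromosome 1 from 9037363 to 9101124) stood furthest above the controls. The hyperinsulinemic monkey had 5.56 RPKM in muscle, from 324 reads (exact Poisson 95% interval 290 to 361), and the controls 0.784, 0.457, 0.646 and 0.432 RPKM, from 27 to 52 reads. It was higher by 3.09 on the log2 scale (standard error 0.496, 95% interval 1.99 to 4.18), with an unadjusted p of 7.05e-05 and an adjusted p of 0.172 from edgeR. The adjusted p was 0.0013 with DESeq2, 0.0290 without a filter and 0.110 to 0.604 when each control was left out. Macrophage markers, with 6 of 8 genes in the tables, summed to 9.05 RPKM in this library and 8.51 to 26.1 RPKM in control muscle.

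*KCNIP2* was not detected in the muscle of the hyperinsulinemic monkey. It had 0 reads there and 30, 22, 64 and 111 reads in control muscle, which against a floor of 3 reads is at least 18.7-fold lower. Its adjusted p was 0.394 in edgeR and 0.0430 in DESeq2.

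*KCNQ5* had 0.341 RPKM (33 reads) in the muscle of the hyperinsulinemic monkey, below the lowest control at 0.592 RPKM (73 reads). The log2 difference was −2.57 (standard error 0.875, unadjusted p 0.0136, adjusted p 0.512). *KCNA5*, a delayed rectifier of heart and smooth muscle, had 0.178 RPKM against 0.627, 0.909, 0.648 and 0.423 RPKM (−2.02, standard error 0.999, adjusted p 0.613), and *KCNC1* had 7 reads against 17 to 64 (−2.45, standard error 1.27, adjusted p 0.631). These 3 of the 11 voltage-gated members tested lay below every control, as did 23.2% of all genes, and did not pass the test. In the same library the smooth muscle and pericyte markers summed to 69.0 RPKM, against 115 to 186 RPKM in the controls, with 5 of 8 below all controls. The slow fiber markers summed to 110 RPKM, against 486 to 4506 RPKM, with 5 of 5 below. Of other lists, 4 of 7 endothelial, 3 of 5 macrophage and 2 of 4 T and NK cell markers tested lay below. Only 1 of 7 adipocyte, 1 of 4 fibroblast and 0 of 4 fast fiber markers did. The part of these cells and fibers in the low members was not tested.

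The abundant channels of muscle stayed within the range of the controls. *KCNS3* was at 35.9 RPKM (log2 difference −0.10, 95% interval −0.71 to 0.51), *KCNC4* at 22.2 RPKM (−0.43, −1.28 to 0.43) and *KCNAB3* at 29.1 RPKM (0.02, −0.65 to 0.69). The intervals of *KCNS3* and *KCNAB3* leave out a doubling or halving, while that of *KCNC4* does not. *KCNN3* was at 4.12 RPKM (0.25, −0.74 to 1.23), and *KCNT1* at 2.31 RPKM (0.10, −0.79 to 0.99).

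In the fat of the hyperinsulinemic monkey 0 of 32 members were called (0.0% of 14477 genes were), and 2 had an unadjusted p under 0.05 (2.9% of all genes did). DESeq2 called 0 members as well. After TMM scaling 9 members lay above all controls (16.5% of all genes did) and 7 below (14.9% of all genes). The 9 were *KCNE4*, *KCNAB2*, *KCNN4*, *KCNQ1*, *KCND1*, *KCNK1*, *KCNK5*, *KCNH2* and *KCNK17*, and the 7 were *KCNIP2*, *KCNN2*, *KCNK4*, *KCNMB4*, *KCNRG*, *KCNC4* and *KCNT2*, of which *KCNT2* lay within the controls in RPKM.

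**Figure D3:**
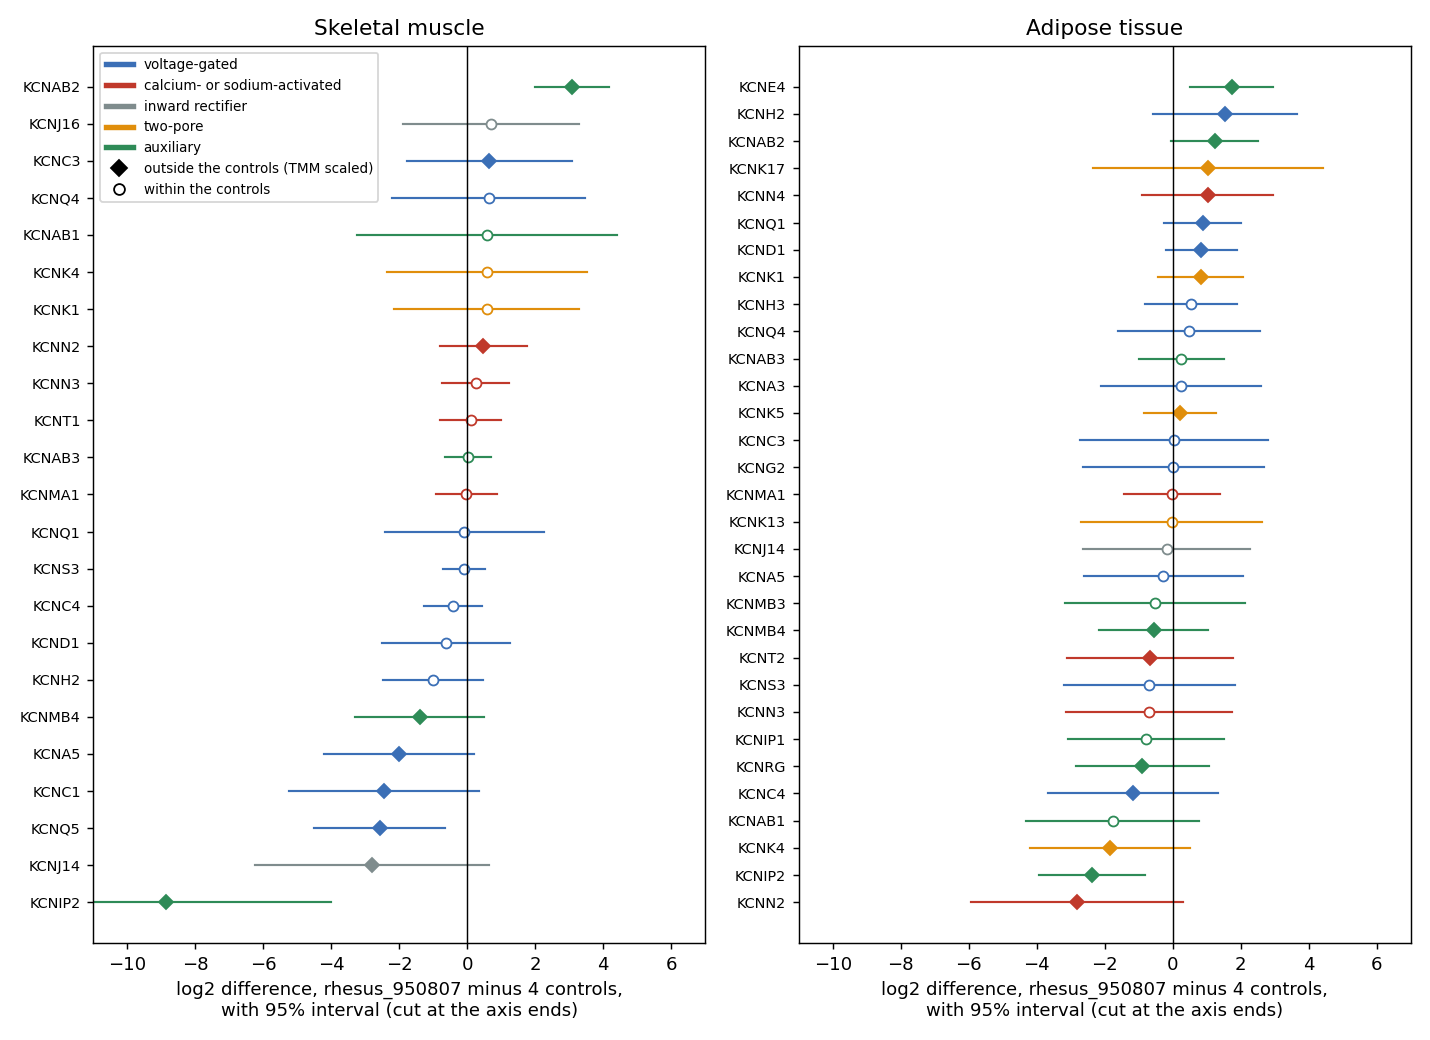
Log2 difference of the hyperinsulinemic monkey from the 4 controls (TMM scaling, edgeR) with 95% intervals, for 23 of the 24 members tested in muscle and 31 of the 32 tested in fat, coloured by class. Filled diamonds lie outside the range of the controls and open circles within it; none was called, and the position of *KCNIP2* in muscle, with 0 reads in the hyperinsulinemic monkey, depends on the prior count of the fit.

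*KCNIP2* and *KCNE4* had the smallest p in fat. *KCNIP2* was at 4.20 RPKM (454 reads, exact Poisson 95% interval 413 to 498), below the controls at 12.3, 28.1, 10.4 and 23.5 RPKM. Its log2 difference was −2.36 (standard error 0.701, 95% interval −3.92 to −0.80, unadjusted p 0.00701, adjusted p 1.0 from edgeR, 0.0940 from DESeq2). *KCNE4* was at 16.7 RPKM (816 reads, interval 761 to 874), above the controls at 7.16, 3.52, 4.40 and 2.41 RPKM, with a log2 difference of 1.75 (standard error 0.550, 95% interval 0.52 to 2.97, unadjusted p 0.0097, adjusted p 1.0). Neither passed the test over all genes. Leaving out each control in turn gave log2 differences of −2.54 to −2.05 for *KCNIP2* and of 1.55 to 2.02 for *KCNE4*. *KCNIP2* thus had less RNA than every control in both tissues of this monkey, as did *KCNMB4*. The share of all genes that did so was not computed.

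*KCNAB2*, above all controls in muscle, was above them in fat too, at 10.8 RPKM against 7.05, 3.0, 3.81 and 2.17 RPKM (1.24, standard error 0.573, unadjusted p 0.0550). *KCND1* was at 5.87 RPKM against 1.79 to 3.25 RPKM (0.85, standard error 0.469), and *KCNQ1* at 5.82 RPKM against 1.93 to 3.66 RPKM (0.88, 95% interval −0.24 to 2.0). *KCNN4* was at 4.67 RPKM (118 reads) against 1.13 to 2.70 RPKM, and *KCNK1* at 4.01 RPKM against 1.68 to 2.36 RPKM. In contrast *KCNN2* had 7 reads against 11 to 45 (−2.81, standard error 1.40, unadjusted p 0.0725).

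Marker genes of other cells were compared in the same library, and none of those of the 4 lists given here was called. Macrophage markers summed to 377 RPKM in the fat of the hyperinsulinemic monkey and 110 to 311 RPKM in the controls, with 6 of the 6 tested above all controls after TMM scaling (16.5% of all genes were) and none at 0. T and NK cell markers summed to 25.5 RPKM against 5.76 to 15.5 RPKM, with 3 of 4 above all controls, and fibroblast markers to 2220 RPKM against 1100 to 1750 RPKM, with 3 of 4 above. Endothelial markers summed to 218 RPKM against 134 to 192 RPKM, but only 1 of 7 lay above all controls after TMM scaling and 1 below, with a median log2 difference of −0.09. Adipocyte markers, at 4988 RPKM, lay within the controls. The part of these cells in the members was not tested.

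**Figure D4:**
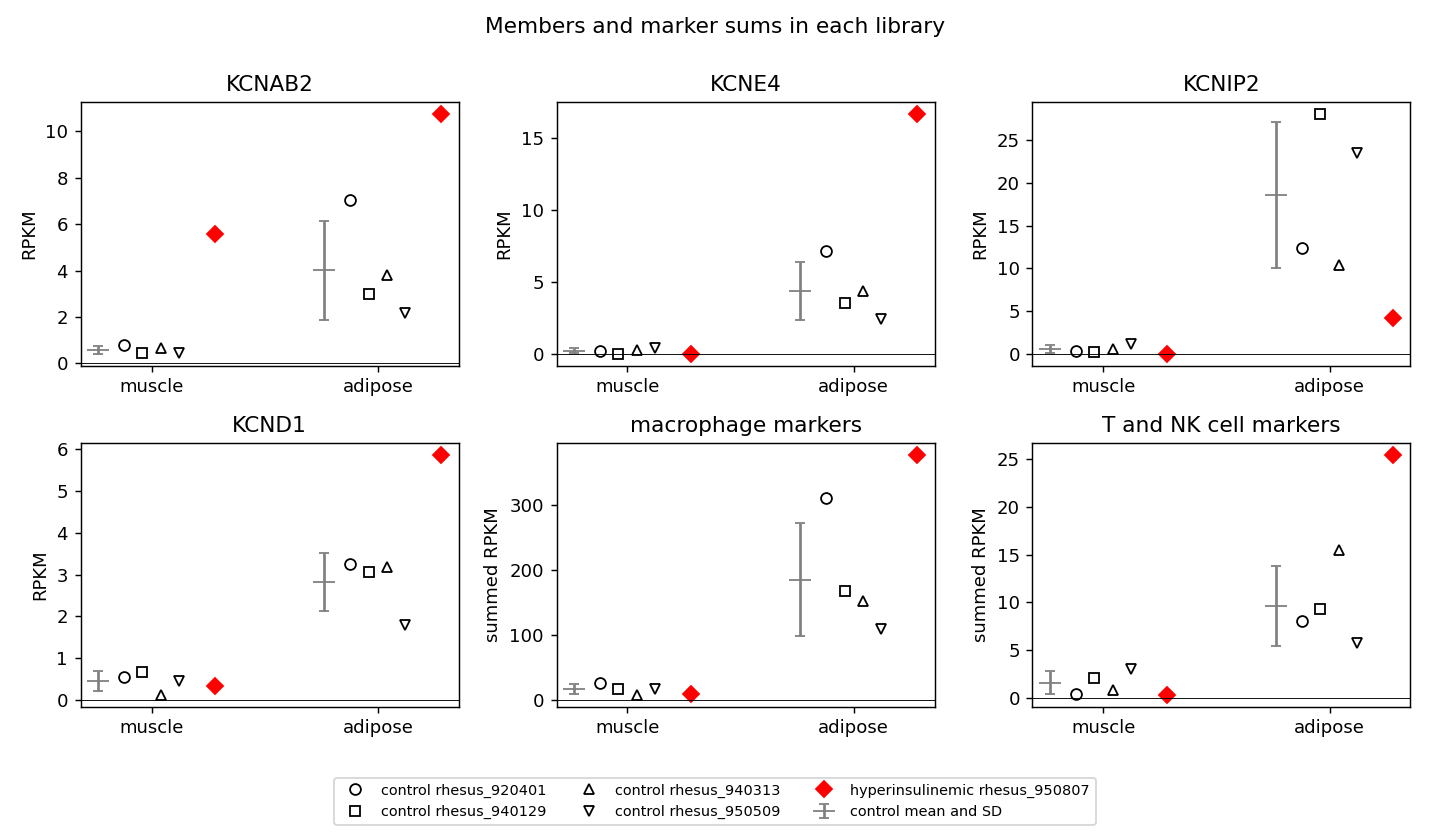
RPKM of *KCNAB2*, *KCNE4*, *KCNIP2* and *KCND1*, and summed RPKM of the macrophage and of the T and NK cell markers, in each library of muscle and fat. Open symbols are the control monkeys, grey bars their mean with SD (n = 4) and red diamonds the hyperinsulinemic monkey, whose fat lies above the controls in every panel but that of *KCNIP2*, at 4.20 RPKM.

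The abundant *KCNAB3* was at 52.3 RPKM in the fat of the hyperinsulinemic monkey, within the controls (0.26, 95% interval −1.0 to 1.51). *KCNIP1* was at 2.98 RPKM and *KCNAB1* at 1.32 RPKM, both inside the wide range of the controls. *KCNK5* was at 2.79 RPKM, above controls of 1.76 to 2.26 RPKM, with a log2 difference of only 0.23 (95% interval −0.83 to 1.28).

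Whether the effect differed between fat and muscle was tested with an interaction term over the 10 libraries (fat minus muscle). Of 35 members 0 were called (0.0% of 14153 genes were), and 4 had an unadjusted p under 0.05 (5.77% of all genes did). DESeq2 called 0 members too. The 4 were *KCNE4* (unadjusted p 0.0110) and *KCNIP2* (0.0270), each with 0 reads in the muscle of the hyperinsulinemic monkey so that no fold is given, *KCNN2* (log2 difference −3.24, standard error 1.26, unadjusted p 0.0237) and *KCNH2* (2.57, standard error 1.15, unadjusted p 0.0437). *KCNH2* lay above all controls in fat (0.696 against 0.0891 to 0.310 RPKM) and within them in muscle (0.918 against 0.625 to 2.70 RPKM). For *KCNAB2* the term was −1.82 (95% interval −3.76 to 0.13, adjusted p 0.848), so its effect was not shown to differ between the tissues. Of the other proteins, 0 of the 24 list genes tested in muscle and 0 of those tested in fat were called, with *ATP1B4* at an unadjusted p of 0.0146 in muscle and *ABCC9* at 4.40 RPKM against 2.0 ± 0.604 RPKM (0.97, unadjusted p 0.0306, adjusted p 0.527).

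Some members below the filter in a comparison had more reads in the hyperinsulinemic monkey than in any control of that tissue. The examples *KCNK17*, *KCNK5* and *KCNS1* were named after their values were seen. Others included *KCNG2* (16 reads against 1 to 11) and *KCNK13* (4 against 0 to 2) in muscle, and *KCNJ1* (16 against 0 to 14) in fat. The share of all genes below the filter that did so was not computed. *KCNK17* (chromosome 4 from 39130083 to 39150014) had 12 reads in its muscle (exact Poisson 95% interval 6.20 to 21.0) and 0, 0, 0 and 1 in control muscle, while in fat it had 29 reads against 15, 13, 11 and 0 and was tested there (1.04, adjusted p 1.0). *KCNK5*, on the same strand of that chromosome from 39016604 to 39067251, had 22 reads (13.8 to 33.3) in its muscle and 0 to 6 in control muscle, far fewer than the 256 to 305 of control fat. In muscle the exact permutation test of RPKM gave each a p of 0.2, two-sided, the smallest it allows. *KCNK16*, which starts 805 bases beyond *KCNK17*, had 0 reads in all libraries. *KCNS1*, a modifier subunit like *KCNS3*, had 18 reads in the fat of the hyperinsulinemic monkey (10.7 to 28.4) and 0 in each of the other 9 libraries.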

How the data were processed

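Poly(A) RNA of muscle and fat was sequenced on an Illumina HiSeq in strand-specific libraries. The authors mapped the reads with TopHat (1.2.0 in the submitters' processing notes, another release in the paper), kept those mapped to 1 place, and deposited read counts per gene. For the counting tool, genome build and annotation the sources used here give no name. The deposited RPKM values equal the authors' counts divided by longest transcript length and mapped total, as checked on the files. Near-identical copies can lose reads by this mapping.

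Counts were tested with edgeR 4.0.16 (quasi-likelihood, two-sided, TMM scaling, Benjamini-Hochberg adjustment) over genes averaging 10 reads or more in the libraries compared. The steps were tested on simulated counts with known changes. Between the tissues 57% of 4-fold and 8% of 2-fold changes were called. In that simulation all but a small part of the genes had the same level in both tissues. In the data 48.1% of the genes tested were called between the tissues. A 2-fold change also lies at the size required for a call, so these shares need not hold for the tissue comparison. For the hyperinsulinemic monkey 37% of 4-fold and 8% of 2-fold changes were called in muscle, and 15% and 0% in fat. For the interaction 0% of either were called. A member that was not called may therefore still differ. Some genes left unchanged in the simulation were called too, 6 between the tissues, 9 in muscle, 2 in fat and 0 for the interaction. A call can therefore also be false. Replicates are monkeys, and an animal's 2 libraries pair by the labels. Their deviations across genes correlated by −0.105 to 0.138. DESeq2 1.42.0, R 4.3.3, matplotlib 3.10.9 and scipy 1.17.1 were also used.

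Named with values are the 3 highest members of each class, the 8 of smallest p each way between tissues, the 5 of smallest p in each tissue of the hyperinsulinemic monkey, and called genes of the lists. Other members were named after their values were seen. Members and lists were chosen with earlier results of these data known. Some genes of the rule or lists are counted but not reported by name here. Of the 28595 genes, 15556 had a symbol. Alternatives were another scaling, filter, test or block, leaving out libraries, a joint fit and summed rows of a symbol.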

Additional observations from a re-analysis of the deposited data

Results flagged for a closer look

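In 51 groups of 4 control libraries, each 1 gene in 1 tissue, the highest or lowest library was compared with the others by Dixon's ratio (gap to the nearest library over the whole range), and 7 groups exceeded its 95% critical value. Chance alone gives about 1 in 20 for normally distributed values. A group with reads in only 1 library always has a ratio of 1, as *KCNT1* in fat and *KCNN4* and *KCNA3* in muscle had. The 7 flags therefore cannot be set against that rate.

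Among them are a pair of well-covered genes. *KCNAB3* had 31.0 RPKM in the muscle of rhesus_920401 and 23.6 to 23.8 RPKM in the other control muscles. *KCND1* had 1.79 RPKM in the fat of rhesus_950509, below 3.07 to 3.25 RPKM in the others.

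The other values rest on few reads. *KCNJ14* had 0.351 RPKM in the muscle of rhesus_950509 and 0.124 to 0.141 RPKM in the others. *KCNJ16* had 0.175 RPKM in the fat of rhesus_940313 and 0.0244 to 0.0314 RPKM in the others. *KCNT1* had 0.0534 RPKM in the same fat library and 0 in the others, *KCNN4* had 0.371 RPKM in the muscle of rhesus_940129 and 0 in the others, and *KCNA3* had 0.00841 RPKM, a single read, in the muscle of rhesus_950509 and 0 in the others. *KCNJ16* and *KCNT1* were both called higher in control muscle. The muscle actin *ACTA1* was at 0.280% of its level in control muscle in the fat of rhesus_940313 and at 0.350% in that of rhesus_920401, where *KCNJ16* had 2 reads and *KCNT1* 0. The part of muscle RNA in these values was not tested.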

How the results depend on the processing

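Over 43 single results, 489 values were computed under the alternatives, of which 464 kept their direction and their side of the threshold, 9 lost the call, 10 gained one and 6 turned direction. Members called higher in fat fell from 12 to 5 without the fat libraries of rhesus_920401 and rhesus_940313 (8 to 12 leaving out 1 control), and those called higher in muscle from 11 to 5 with a filter at a mean of 1 RPKM, since fewer genes pass it (10 to 12 leaving out 1 control). In muscle of the hyperinsulinemic monkey, DESeq2 called 2 members and edgeR with no filter 1. Over all genes, 0 calls became 90 with DESeq2, 10 with no filter and 0 to 3 leaving out 1 control in muscle (3 without rhesus_940313). In fat they became 12 with DESeq2, 32 without the 2 fat libraries and 0 to 8 leaving out 1 control (8 without rhesus_920401), and for the difference between tissues 5 with DESeq2. For all of these the cause was not tested.

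With scaling to summed gene counts the tissue difference reversed for *KCNAB3* (0.602), *KCNJ14* (0.135) and *ABCC9* (0.821). Leaving out 1 control gave −0.11 to 0.88 for *KCNK4*, negative without rhesus_940129, and −0.0321 to 0.71 for *ABCC8*, negative without rhesus_940129 (−0.0249) and without rhesus_950509. None of these is called in the report, while *KCNK4* was called with summed counts and *KCNAB3* without rhesus_940129. With the animal as a replicate block, *KCNK1* was no longer called (1.82, adjusted p 0.0516) and *KCNN4* was (4.40, adjusted p 0.0325). The block changed no other call of a member, and 12 members were called higher in fat and 11 in muscle as before. Within 1 tissue each animal has 1 library, so no block can be fitted for the hyperinsulinemic monkey there.

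Depth limits the low members, of which 20 never reached 10 reads in a library.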
